A study of Caenorhabditis elegans with 2 samples.

Results

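The histone genes of Caenorhabditis elegans were examined in a chromatin immunoprecipitation sequencing (ChIP-seq) map of UNC-39, a homeodomain protein related to mammalian Six4 and Six5. The members were all protein-coding genes whose Ensembl WBcel235 name begins with his-, which gave 72 of 19973 protein-coding genes on the nuclear chromosomes. Whole mixed-stage embryos of strain OP186 were used, which carries the unc-119(ed3) III allele and the wgIs186 transgene for eGFP-tagged UNC-39. Males and females were pooled, the age is given as unknown, and both libraries are biological replicates of this 1 group. There is no untagged or mutant group, and the strain is 1 transgenic line, so nothing here compares conditions. For antibody the labels name unc-39, while they also describe the ChIP as against the eGFP fusion.

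Each library is known only through the authors' lists of regions, so the read depth is unknown. On build ce11 the list that passed the irreproducible discovery rate (IDR) procedure held 267 regions and is named the called list here. The relaxed lists, which include background, held 9046 regions for the pooled replicates, 15880 for replicate 1 and 30000 for replicate 2. On build ce10 the same lists held 280, 9289, 15620 and 30000 regions. The signal quoted for a region is the authors' own peak score against a control, and rank 1 is the highest signal in a list. Signals and ranks are set side by side across lists without a test, since no scaling between the lists is recorded.

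Core histones H2A, H2B, H3 and H4 wrap DNA into nucleosomes, and linker histone H1 binds where the DNA enters and leaves. Most core histone genes are replication-dependent: they are short, lack introns, are transcribed in S phase, and give mRNAs that end in a stem-loop bound by a dedicated protein in place of a poly(A) tail. Cleaving embryos need large amounts of their products. Variants such as H3.3 are put into chromatin outside S phase as well, and their genes resemble ordinary ones. In the worm, replication-dependent genes lie in small clusters, often as pairs transcribed away from each other from a shared spacer, and several clusters are near copies.

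The annotation gave 17 H2A, 16 H2B, 15 H3, 16 H4 and 5 H3.3 genes, the linker histone gene his-24, and 2 genes annotated only with a histone domain, his-39 and his-73. They fell into 19 clusters (neighbours no more than 10 kb apart), of which 10 held 4 or more genes and 58 genes in all. As many as 62 genes formed 31 divergent pairs, 16 of H2A with H2B, 14 of H3 with H4 and 1 of H2A with H4, and the other 10 were single. A pair or a single gene is called a promoter unit, and there were 41. The spacer between the annotated starts of a pair had a median of 258 bp (227 to 368 bp). For 64 of the 72 genes the annotated transcription start site (TSS) is the start codon, so distances below run to the start codon for most members.

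The sequences on which the results turn are spacers, because called summits lay inside them and because many spacers are copies of each other. The first 3 are the 201 bp centred on the called summits of his-61/his-62 (chrIV:7486317-7486517), his-31/his-32 (chrIV:8334053-8334253) and his-60/his-59 (chrIV:7488010-7488210). The next is the whole spacer of his-4/his-3 (chrV:16040516-16040807), listed in all 3 relaxed lists and not called. The last is the whole spacer of his-51/his-52 (chrV:8850172-8850463), which has 3 further identical copies and no summit in any list. All are from the RefSeq copy of WBcel235, the assembly that ce11 names, on the plus strand, 5′ to 3′. Capitals mark GGGACACA or, on the other strand, TGTGTCCC, a word described further on.
his-61/his-62: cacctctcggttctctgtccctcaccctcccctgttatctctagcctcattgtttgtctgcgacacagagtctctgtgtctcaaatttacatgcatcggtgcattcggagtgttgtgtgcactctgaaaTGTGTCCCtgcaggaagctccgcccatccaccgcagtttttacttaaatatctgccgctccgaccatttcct
his-31/his-32: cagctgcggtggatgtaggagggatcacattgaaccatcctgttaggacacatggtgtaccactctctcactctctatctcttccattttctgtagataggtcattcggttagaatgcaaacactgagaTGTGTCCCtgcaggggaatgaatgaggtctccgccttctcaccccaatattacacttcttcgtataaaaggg
his-60/his-59: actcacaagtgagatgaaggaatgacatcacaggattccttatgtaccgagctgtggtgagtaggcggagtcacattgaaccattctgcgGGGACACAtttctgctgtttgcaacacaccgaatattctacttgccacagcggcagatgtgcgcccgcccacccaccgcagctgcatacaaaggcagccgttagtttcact
his-4/his-3: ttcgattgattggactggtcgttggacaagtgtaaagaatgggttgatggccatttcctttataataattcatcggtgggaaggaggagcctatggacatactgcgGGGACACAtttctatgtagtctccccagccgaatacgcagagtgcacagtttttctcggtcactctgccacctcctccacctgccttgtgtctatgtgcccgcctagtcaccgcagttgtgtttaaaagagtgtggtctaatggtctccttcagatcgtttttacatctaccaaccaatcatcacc
his-51/his-52: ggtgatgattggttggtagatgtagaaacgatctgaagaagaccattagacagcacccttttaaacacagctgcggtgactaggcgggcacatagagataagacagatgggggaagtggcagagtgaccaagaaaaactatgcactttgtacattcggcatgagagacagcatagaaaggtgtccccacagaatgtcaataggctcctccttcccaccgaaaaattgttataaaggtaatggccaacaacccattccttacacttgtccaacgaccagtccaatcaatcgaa

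A called summit lay within 1000 bp of the TSS of 8 histone genes (11.1%), against 0.941% of all protein-coding genes (188 of 19973). These 8 genes are 4 divergent pairs with 1 summit each, so the number of independent sites is 4 and the units with a called summit were 4 of 41. All 4 summits lay inside the spacer and nearer its middle than either start. Measured to the nearer TSS, they were 118 to 152 bp away (median 138 bp, SD 16.2, n = 4 summits). The furthest gene inside the 1000 bp limit was his-67 at 221 bp, and the nearest outside were his-33 at 1565 bp and his-34 at 1819 bp, the neighbours of his-31/his-32. By class the 8 genes were 3 H4, 2 H3, 2 H2A and 1 H2B genes. None of the 5 H3.3, 1 linker and 2 histone-domain genes was called. With 0.941% of all genes called, classes this small give no contrast.

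The strongest was the H2A and H2B pair his-61/his-62 (WBGene00001935 and WBGene00001936). The called region ran over chrIV:7486347-7486440 and was, at 94 bp, narrower than the 376 bp of all other called regions. It had a signal of 132.83 and rank 3 in the called and pooled lists, 77.12 and rank 2 in replicate 1, and 52.57 and rank 6 in replicate 2. The pair was thus near the top of each library. The summit lay 200 bp upstream of his-61 and 128 bp upstream of his-62, and the nearest TSS outside the histone genes was that of F55G1.1 at 5347 bp.

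Next came the H4 and H3 pair his-31/his-32 (WBGene00001905 and WBGene00001906, called region chrIV:8333965-8334340). Its signal was 108.88 with rank 10 in the called and pooled lists, 53.89 with rank 22 in replicate 1, and 56.68 with rank 3 in replicate 2. Here replicate 2 gave the higher place. The summit was 170 bp upstream of his-31, 152 bp upstream of his-32 and 9 bp from the middle of the spacer. The gene lys-10 had the nearest TSS outside the histone genes, at 1327 bp.

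The remaining 2 called pairs ranked lower, and more so in replicate 2. The pair his-67/his-68 (WBGene00001941 and WBGene00001942), an H4 gene and an H2A gene on chromosome I, is the only pair of its kind and has the longest spacer, 368 bp. It had a signal of 69 and rank 67 in the called list, 53.84 and rank 23 in replicate 1, and 21.65 and rank 325 in replicate 2. A TSS of alg-5, an Argonaute gene, lay 818 bp from its summit, further than the 221 and 148 bp to the histone genes. The H4 and H3 pair his-60/his-59 (WBGene00001934 and WBGene00001933) lies in the same cluster as his-61/his-62. It had a signal of 48.54 and rank 199 in the called list, 29.59 and rank 187 in replicate 1, and 21.35 and rank 345 in replicate 2, with the summit 118 bp upstream of his-60 and 139 bp upstream of his-59. The nearest tRNA, snRNA or snoRNA gene to any of the 4 summits lay 4573 bp away.

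With each library's own 267 strongest regions in place of the called list, replicate 1 gave the same number of histone genes, 8 (11.1%, against 0.916% of all genes), and replicate 2 gave 5 (6.94%, against 0.906%). The genes in replicate 2 were his-61/his-62, his-31/his-32 and his-37. Within 2000 bp the called list gave 10 histone genes (13.9%, against 1.46% of all genes), and its 134 strongest regions gave 6 within 1000 bp (8.33%, against 0.511%). The genes added within 2000 bp, his-33 and his-34, were reached by the summit of his-31/his-32. In replicate 2 his-67/his-68 and his-60/his-59 stood just past rank 267, and the H4 gene his-37 stood at rank 133.

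**Figure D1:**
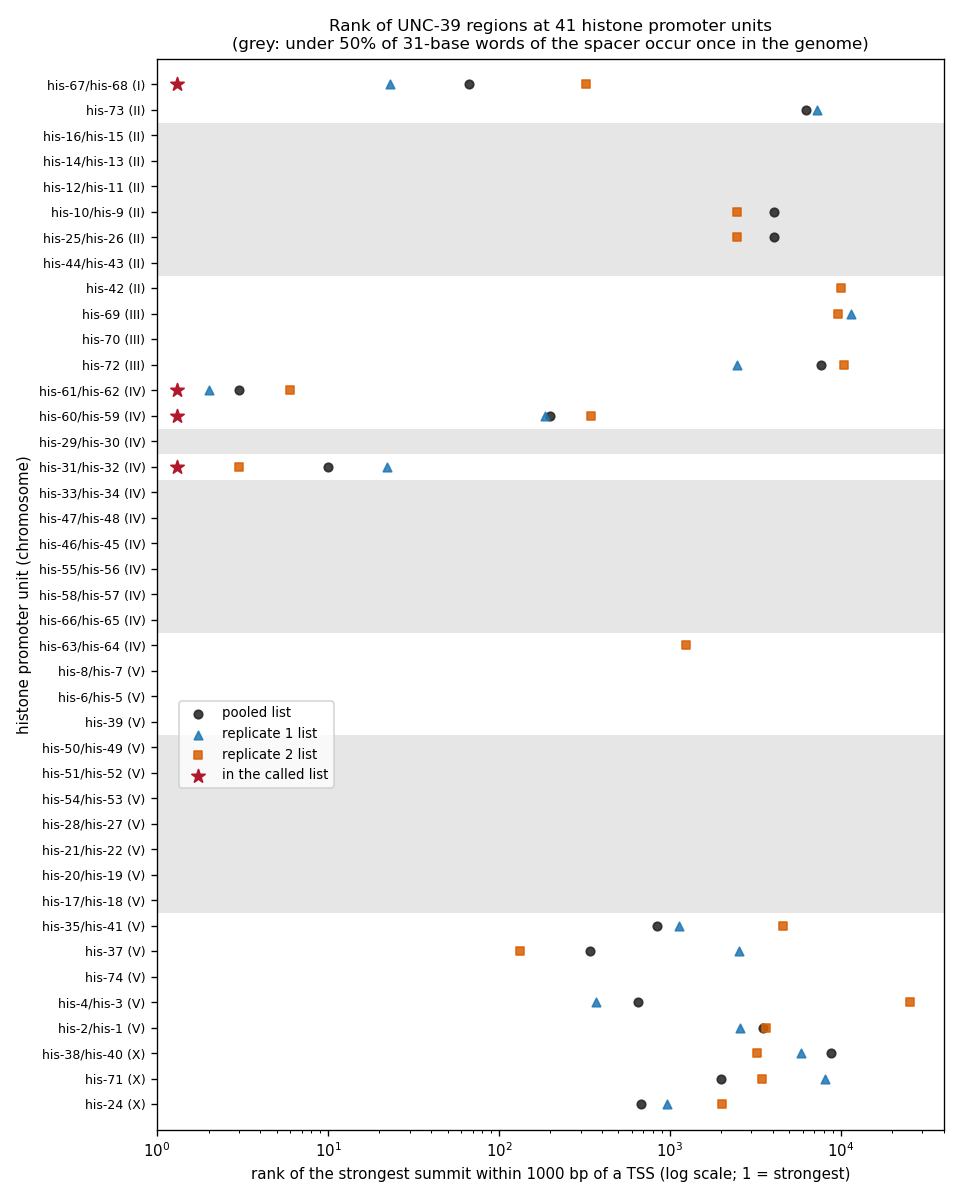
Rank of the strongest summit within 1000 bp of a TSS (log scale, 1 is strongest) for each of the 41 histone promoter units, in genome order, in the pooled (circles), replicate 1 (triangles) and replicate 2 (squares) lists; a row with no symbol has no listed summit and stars mark the 4 called units. Grey rows have a spacer in which under 50% of 31-base words occur once in the genome, and 18 of those 20 rows are empty, against 5 of the 21 white rows.

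Relaxed lists contain background, so the share of all genes sets the scale. In the pooled list 24 histone genes (33.3%) had a summit within 1000 bp, against 21.5% of all genes. In replicate 1 the count was 21 (29.2%, against 34.0%), and in replicate 2 it was 27 (37.5%, against 53.1%). The share of histone genes was above that of all genes in the pooled list and below it in both replicate lists. Among the 1000 strongest regions of each list it was above that of all genes in all 3, with 13 genes in the pooled list (18.1%, against 3.20%), 11 in replicate 1 (15.3%, against 3.12%) and 9 in replicate 2 (12.5%, against 2.78%). Over histone genes with a summit, the median rank of the strongest summit per gene was 759 in the pooled list, against 4137 for all genes with a summit. It was 957 against 6786 in replicate 1, and 2456 against 11943 in replicate 2. These medians include the 8 genes of the called pairs, and genes that share a summit count separately. The uncalled histone genes in the pooled list had ranks from 342 to 8700. The remaining 44 histone genes, in 23 units, had no summit in any of the 4 lists.

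Of these 23 empty units, 18 were divergent pairs whose spacer is a copy or near copy of another. Uniqueness was measured as the share of 31-base words in the 501 bp around the annotated start that occur once in the genome on either strand. Histone genes had a median of 5.94% (0 to 100%), with 33 genes at 0%, while the median over all protein-coding genes was 100%. Under 50% unique were 43 histone genes (59.7%) and 661 of all genes (3.31%). Of those 661 genes, histone genes included, 0 had a called summit, 2.72% had a pooled summit, 4.08% one in replicate 1 and 9.08% one in replicate 2. Histone genes with such windows had 0 called summits, 3 with a pooled summit (6.98%), 0 in replicate 1 and 3 in replicate 2 (6.98%).

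Among genes at 50% or more, 8 of 29 histone genes had a called summit (27.6%) against 180 of 19283 other genes (0.933%). In the pooled list it was 21 of 29 (72.4%) against 22.0%, in replicate 1 it was 21 (72.4%) against 34.9%, and in replicate 2 it was 24 (82.8%) against 54.5%. With this restriction, chosen after seeing the data, the share of histone genes was above that of other genes in all 4 lists. Genes of a pair can share a summit and are not independent, and the 8 called genes are 4 pairs. No source used here says how reads that map to several places were treated, and their part in the empty units was not tested.

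**Figure D2:**
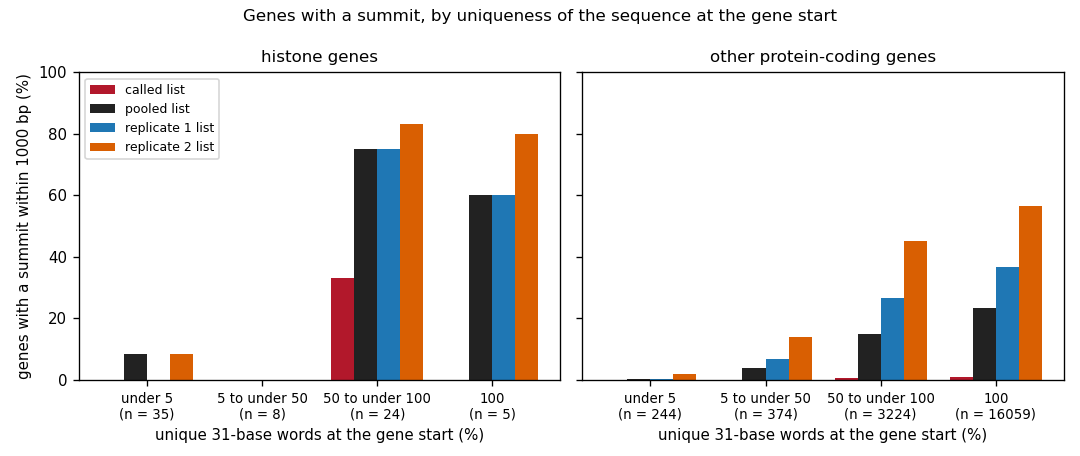
Percent of genes with a summit within 1000 bp of a TSS (vertical axis, from 0 to 100%) by the percent of unique 31-base words in the 501 bp around the gene start, for the 72 histone genes (left) and the other protein-coding genes (right) in the called, pooled, replicate 1 and replicate 2 lists. Bars are single values without error, n is the number of genes in each bin, and called summits appear only in the bins from 50% up: 8 of 24 histone genes in the bin from 50 to under 100%, and 0 of 5 in the bin at 100%.

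Spacers fell into separate ranges on this measure, with the 300 bp upstream of the start taken for a single gene. All 20 units with a spacer under 50% unique were divergent pairs, with 0 to 13.6% unique words, and the other 21 units had 75.2% or more. The 20 copied pairs, which hold 40 genes, had 0 called summits, and no strongest summit in any list lay inside their spacers. Of these pairs, 16 had a spacer identical letter for letter to that of at least 1 other pair, in 6 groups. The 283 bp between the annotated starts of his-58/his-57 also occur 3 times in the genome. The largest group was his-51/his-52, his-54/his-53, his-21/his-22 and his-20/his-19, with 4 copies of the 292 bp printed above. The pair his-4/his-3 has a spacer of the same length that matches its reverse complement at 259 of 292 aligned letters (88.7%), yet 98.1% of its words are unique, and it had a summit in each relaxed list.

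Of the 21 units with a unique spacer, 4 were called, 13 had a pooled summit, 14 one in replicate 1 and 15 one in replicate 2. The strongest summit lay inside the spacer in 4, 7, 6 and 8 of these units, in the same order. Some of the others lay nearer the TSS of a gene outside the histone genes. The 5 in no list were his-8/his-7, his-6/his-5, his-39 and the H3.3 genes his-70 and his-74. The cluster on chromosome IV that holds his-31/his-32 shows both kinds of spacer side by side. Its flanking pairs his-29/his-30 and his-33/his-34 share an identical spacer of 253 bp, with 0% unique words and no summit in any list, while the spacer of his-31/his-32 is 100% unique. The largest cluster, with 13 genes on chromosome II, had 0 called genes. Its pooled summit, with a signal of 22.49 and rank 4057, lay between the 3′ ends of his-9 and his-25, 706 bp past the start of his-9. It was absent from replicate 1, had 13.62 and rank 2456 in replicate 2, and lay in a region of which 97.1% is unique, unlike the spacers of both pairs, his-10/his-9 and his-25/his-26, to which it counts.

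Outside the called pairs, the highest pooled signal belonged to his-37 (WBGene00001911), a single H4 gene on chromosome V. It had a signal of 41.42 and rank 342 in the pooled list, 15.95 and rank 2533 in replicate 1, and 26.86 and rank 133 in replicate 2. The libraries thus differed in its place, with summits at 128 and 95 bp upstream of the start. Its neighbour pair his-35/his-41, an H2A and an H2B gene, had 32.41 and rank 839 in the pooled list, 18.85 and rank 1136 in replicate 1, and 11.71 and rank 4561 in replicate 2. That pooled summit lay 887 bp downstream of the his-35 start and 175 bp from the TSS of mdf-1, a spindle checkpoint gene, so the histone pair is not its nearest neighbour. The replicate 1 summit lay 192 bp from the mdf-1 TSS, but the replicate 2 summit lay elsewhere, 86 bp downstream of the his-41 start. A weaker pooled summit, with a signal of 20.97 and rank 5445, lay in the spacer 43 bp upstream of his-41.

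On the far part of chromosome V, the H2B and H2A pair his-4/his-3 had a signal of 34.72 and rank 653 in the pooled list. It had 24.65 and rank 369 in replicate 1, and 6.41 and rank 25382 in replicate 2. Its place in replicate 2 was near the bottom of the list, although the summits of both libraries lay in the spacer, 28 bp apart. The H3 and H4 pair his-2/his-1 beside it had 23.32 and rank 3480, 15.92 and rank 2554, and 12.4 and rank 3638 in that order. None of these his-2/his-1 summits was in the spacer: the pooled one lay 176 bp downstream of the his-1 start, and that of replicate 1 lay 586 bp downstream of the his-2 start.

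The linker histone gene his-24 (WBGene00001898, chromosome X) had a signal of 34.33 and rank 679 in the pooled list, 19.58 and rank 957 in replicate 1, and 14.17 and rank 2029 in replicate 2. Its summits lay 38 to 70 bp downstream of the start in all 3 lists, and it was not called. As 0.941% of all genes were called, the count of 0 called is no contrast for the 5 H3.3 genes. Of these, his-71 (chromosome X) had in the pooled list a signal of 26.55 and rank 1983, with 12.06 and rank 8087 in replicate 1 and 12.55 and rank 3469 in replicate 2, and his-72 (chromosome III) had 19.22 and rank 7605, 16.04 and rank 2461, and 9.27 and rank 10425 in the same order. The his-71 summits lay 560 to 630 bp upstream, and those of his-72 lay 252 to 671 bp downstream of a start. In replicate 2 the his-72 summit lay nearer the TSS of Y75B8A.33, at 120 bp. The H3.3-like gene his-69 had 10.9 and rank 11399 in replicate 1 and 9.52 and rank 9575 in replicate 2, and the former lay 54 bp from the TSS of rcq-5. The domain gene his-73 was listed with 20.25 and rank 6225 in the pooled list and 12.42 and rank 7248 in replicate 1, from a summit 3 bp from the TSS of W09H1.3 in the pooled list.

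In all, 13 units were in both replicate lists, and being in both did not always mean the same site. In 8 units the strongest summits of the replicates lay within 100 bp of each other (0 to 73 bp), a limit chosen after seeing the values. These were the 4 called pairs, his-37, his-4/his-3, his-71 and his-24. In the other 5, his-69, his-72, his-35/his-41, his-2/his-1 and his-38/his-40, the strongest summits were 305 to 1204 bp apart, and 0 of these were called. The called list was itself derived from the replicate lists by the IDR procedure. Close summits and being called are therefore not independent, and no conclusion is drawn from their link.

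**Figure D3:**
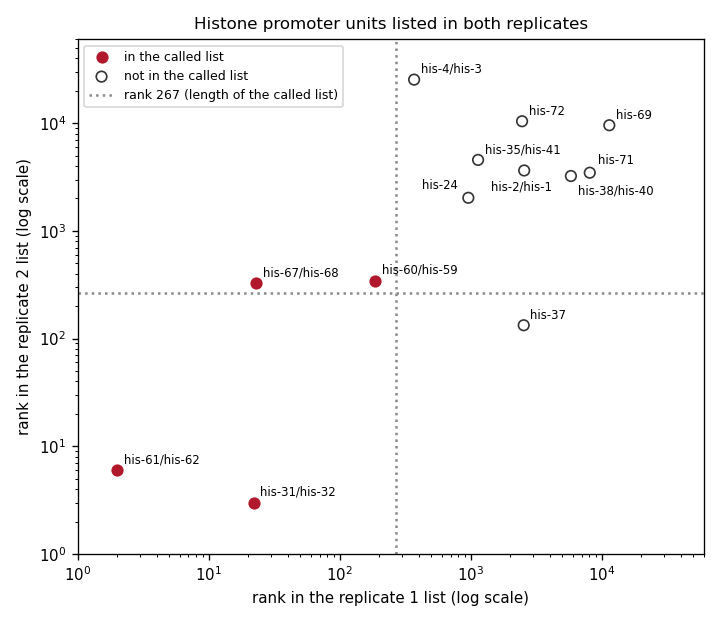
Rank of the strongest summit of each histone promoter unit in the replicate 1 list (horizontal axis, log scale) against that in the replicate 2 list (vertical axis, log scale), for the 13 units listed in both; filled points are called and dotted lines mark rank 267. Only his-61/his-62 and his-31/his-32 are within rank 267 in both, his-67/his-68 and his-60/his-59 are so in replicate 1, and his-37 is so in replicate 2.

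Positions within the spacer were close between libraries at the called pairs, which the IDR procedure had selected from both replicate lists. At his-61/his-62 the summits of the replicates were 10 bp apart, at his-60/his-59 they were 0 bp apart, at his-31/his-32 they were 24 bp apart and at his-67/his-68 they were 73 bp apart. The median distance to the nearer TSS over the 4 pairs was 138 bp in the pooled list, 142 bp in replicate 1 and 137 bp in replicate 2. The pooled summits at these pairs are the same positions as the called ones. Another pair with its strongest summit in the spacer, the H3 and H4 pair his-63/his-64, was listed in replicate 2 alone. There it had a signal of 15.8 and rank 1247. It and his-38/his-40 were named after their values were seen.

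**Figure D4:**
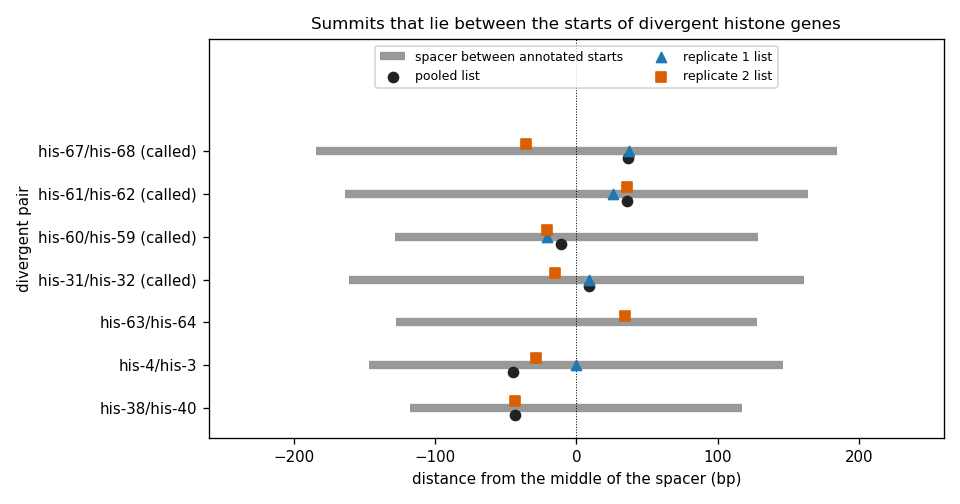
Distance of the strongest summit from the middle of the spacer (bp, horizontal axis) for the 7 divergent pairs in which it lies between the annotated starts in at least 1 relaxed list; grey bars show each spacer's length and symbols the list. Summits of the 4 called pairs lie within 37.5 bp of the middle in every list.

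Spacer letters were then compared across the units. The TATA box TATAAA was in 28 of 41 units (68.3%), and at gene level in 51 of 72 histone genes (70.8%), against 39.6% of 300 bp promoters of all genes. The CCAAT box CCAAT was in 23 units (56.1%), or 41 genes (56.9%), against 45.1%. These counts take identical spacers more than once. Of the 21 distinct pair spacers, 16 held TATAAA and 12 held CCAAT. The octamer ATTTGCAT and the Six4-type word TGACACC were in 0 units, against 2.87% and 2.32% of all promoters. The GA repeat GAGAGAGA and the word GAGACGCA, both chosen with earlier results on these data known, were each in 1 unit, his-67/his-68, or 2 genes (2.78%), against 3.69% and 3.49%. All were searched on both strands as exact letters, and their windows differ, since a pair's spacer is 227 to 368 bp long and the promoters of all genes are 300 bp. Absence of a word says only that these letters are not in the window.

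An 8-letter word shared by many spacers was GGGACACA (TGTGTCCC on the other strand). It was chosen after seeing the data, as the word in the most distinct pair spacers and, among equals, in the smallest share of all promoters. It was in 20 of the 31 pairs, 13 of the 21 distinct pair spacers, and 42 of 72 histone genes (58.3%), against 128 of 19973 promoters of all genes (0.641%) and 86 of the 19901 outside the histone genes (0.432%). The word ATGTGTCC, which overlaps it, was in as many distinct spacers and in 0.781% of all promoters. All 4 called units held GGGACACA. Its middle lay 6.5 bp from the called summit at his-60/his-59, 32.5 bp at both his-61/his-62 and his-31/his-32, and 11.5 and 98.5 bp at his-67/his-68, which holds 2 occurrences.

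The word did not by itself mark the called units. Among the 11 pairs with a unique spacer it was in 6, of which 4 were called and 2, his-4/his-3 and his-6/his-5, were not. Of the 267 windows of 201 bp around called summits, 9 held it, and 4 of those were the histone pairs. The closest other histone spacer matched his-60/his-59 at 85.8% of aligned letters, his-61/his-62 at 79.2%, his-67/his-68 at 64.1% and his-31/his-32 at 58.8%. The GC content of pair spacers had a median of 45.8% (43.3 to 50%), against 35.4% for the genome.

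Genes that act with histones were listed for comparison: linker histones outside the his- names, variants, the stem-loop binding protein gene cdl-1 and histone chaperones, 27 in all. Of these 1 was called (3.70%, against 0.941% of all genes), the linker histone gene hil-7 (WBGene00001858, chromosome IV). It had a signal of 73.01 and rank 57 in the called list, 45.43 and rank 43 in replicate 1, and 23.47 and rank 218 in replicate 2, from a summit 252 bp upstream. In the pooled list 10 of the 27 had a summit (37.0%, against 21.5% of all genes), in replicate 1 this was 15 (55.6%, against 34.0%) and in replicate 2 it was 19 (70.4%, against 53.1%). By role, 3 of 8 linker histone genes, 2 of 4 variant genes, 5 of 14 chaperone genes and 0 of 1 mRNA processing gene had a pooled summit. The histone chaperone gene unc-85, a relative of ASF1, had 43.14 and rank 293 in the pooled list, with rank 1135 in replicate 1 and rank 194 in replicate 2. The H2A.Z gene htz-1 had 37.47 and rank 497, with ranks 7820 and 695. Neither was called, and cdl-1 was listed in replicate 2 alone, at rank 8289. The genes unc-85, htz-1 and cdl-1 were named outside the rule for naming genes.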

How the data were processed

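As deposited text files state, the authors derived relaxed lists from the alignments of the replicates and a control, and the called list from the pooled and replicate lists with the IDR procedure. The deposited signal column was used within a list only. No source used here names the aligner, peak caller or settings. Genes came from Ensembl release 115 and names from RefSeq by WormBase identifier, because Ensembl gives 14 names to 36 of the histone genes. Coordinates are 1-based, and ce10 lists were used for region counts only. Every protein-coding gene was searched for summits within 1000 bp of a TSS with Python 3.11.15, NumPy 2.4.6 and pandas 2.3.3. Spacers were aligned with Biopython 1.88, and the counting was tested on simulated data. No test was made, as there is 1 group. The rule for naming covered the called genes, the 10 uncalled units of highest pooled signal, and the H3.3, linker and isolated genes. It also covered genes at the distance limit and called related genes. The uncalled related genes unc-85, htz-1 and cdl-1 were named outside it. Members, lists and words were chosen with earlier results of these data known. Alternatives were other distances, lists, single libraries, windows and word lengths.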

Additional observations from a re-analysis of the deposited data

How the results depend on the processing

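Taking the top 267 of a single library as the called list, histone genes with a summit ran from 5 to 8 and units from 3 to 4; the 5 came from leaving out replicate 1. With the 1000 strongest regions of each relaxed list, the counts fell to 13 in the pooled list, 11 in replicate 1 and 9 in replicate 2, a smaller list by construction; the shares of all genes fell too, to 3.20%, 3.12% and 2.78%. Within 100 bp of the strongest pooled summit, over 15 units, the TATA box was in 33.3%, the CCAAT box in 26.7% and the GA repeat in 13.3%, in windows that are not the spacers. Of 43 alternative values 36 stayed within 1.5 times the count or within the spread. Such values have no direction, so a reversal could not be scored. Beside the share of all genes, the histone share did change side in the replicate lists. It was below that of all genes in both full replicate lists and above it among their 1000 strongest regions. A summit within 2000 bp gave 10 genes and 5 units, and the stronger part of the called list gave 6 genes and 3 units. The pair added within 2000 bp, his-33/his-34, was reached by the called summit of his-31/his-32, so no further summit was gained. Uniqueness had a median of 4.61% with 25-base words and 7.05% with 500 bp to each side. No paired analysis was possible because there is 1 group and no test. The lists hold no read counts, so absence from a list is not absence of binding.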

Other observations

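Of the 19 histone clusters, 3 held a called gene. Among the 10 clusters with 4 or more genes, called genes were 4 of 4 in the cluster of his-61, his-62, his-60 and his-59 and 2 of 6 in that of his-31 and his-32, both on chromosome IV. The other 3 clusters of 4 genes on chromosome IV had 0 called genes, and 1 of them, with his-63/his-64, had 2 genes listed in replicate 2. For called genes the distance to the next histone gene is the spacer of the pair, which was 256 to 368 bp. Over all 31 pairs the spacer ran from 227 to 368 bp.

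The H3 gene his-42 (chromosome II), named after its values were seen, was listed in replicate 2 alone, with a signal of 9.38 and rank 10038, from a summit 862 bp upstream and 68 bp from an snRNA gene.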
